A study of Homo sapiens with 18 samples.

Results

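Untreated HK-2 cells were profiled on 6 of the 18 arrays of a study of C-peptide and transforming growth factor beta 1 (TGF-beta1). HK-2 is a line of human kidney proximal tubule epithelium immortalised with oncogenes of a human papillomavirus, and the labels give its passages as 18 to 30. The 6 arrays are those titled as controls: 3 flasks matched to a 48 h incubation and 3 matched to an 18 h incubation, in each case without an added agent, with 1 Illumina HumanWG-6 bead array per flask. Other arrays were used beside them where stated: TGF-beta1 at 2 ng/mL for 48 h (3 arrays), C-peptide at 5 nM for 48 h (3 arrays) and C-peptide at 5 nM for 18 h (3 arrays). The remaining 3 arrays came from flasks given both agents at these doses for 48 h. They entered the normalization, the filter on probes, the shared model fit and the measure of gene span over all 18 arrays. All flasks had been grown in medium with 10% serum and 17.5 mM glucose, moved to 5 mM glucose for 48 h, and starved of serum overnight before agents were added. Per the labels, all flasks received the same changes of medium and the same total time without supplements, and the incubations of 18 h and 48 h ended together. The labels therefore name no difference in medium between the 2 control groups. They do not say whether the flasks of a group came from separate cultures, so p-values measure the spread between flasks, which may be technical.

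The proximal tubule reclaims most of the filtrate. Its apical brush border carries sodium-coupled transporters for glucose, phosphate and amino acids, peptidases, and the endocytic receptors megalin and cubilin, while the sodium pump and the bicarbonate cotransporter work on the basolateral side. Tubule cells in the body burn fatty acids and make glucose, and after injury they lose brush border proteins and switch on genes such as HAVCR1 (kidney injury molecule 1) and VIM. Cultured lines are commonly judged by how much of this equipment they still transcribe.

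The control arrays detected like numbers of genes, and the 48 h arrays were brighter. Mean bead intensity was 343.7, 311.5 and 307.3 on the 48 h arrays, against 247.4, 217.4 and 215.9 on the 18 h arrays. Genes with a current symbol detected at a detection p under 0.01 numbered 10009, 9739 and 10041 on the 48 h arrays, against 9724, 9542 and 9864 on the 18 h arrays, so the detected sets were nearly equal in size. Running numbers in the deposited column names place the 48 h controls beside the TGF-beta1 arrays and put every 18 h array, control and C-peptide, in a later block, so time and array order cannot be told apart. Replicate 3 at 18 h stood closer to the 48 h arrays than to the other 18 h arrays, and time results are therefore given with and without it. The number of arrays limits the precision of every comparison. In bulk RNA, fewer cells that make a transcript and less transcript per cell cannot be told apart.

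Of 17208 genes with a current symbol and a probe, 9397 (54.6%) were detected on all 6 control arrays by at least 1 probe, 852 (5.0%) on 1 to 5 arrays and 6959 (40.4%) on none. Signals below are log2 intensities after background correction and quantile normalization. Over all gene names on the array, with or without a current symbol, 11136 were detected on all 6 arrays and 25609 on none. The mean signal of the 11136 ran from 5.52 to 14.78 with a median of 8.31, whereas those not detected had a median of 4.48. Percentiles of detected genes given below rank these 11136 names. Signal also depends on how well a probe hybridises, so a rank orders probe brightness, not transcript abundance, and "not detected" describes the probes. Detection on all 6 arrays covered 49.7% of the 11229 genes with 1 probe, 61.0% of the 3542 with 2 and 67.7% of the 2437 with 3 or more. Of the 3811 genes with several probes that were detected on all 6 arrays, 57.2% also had a probe that was not.

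The brightest probes belonged to translation and the cytoskeleton. EEF1A1, which carries aminoacyl-tRNA to the ribosome, led with signals of 14.84, 14.74 and 14.77 at 48 h and 14.77, 14.84 and 14.74 at 18 h. Among the genes that came next were TPT1, RPS2, ACTG1, RPL41, RPL6, RPL38, FTL, RPS27A, RPS12, RPS10, RPS27, RPS25, TMSB4XP8, H3-3A, RPS29, RPLP0, RPL19, RPL12, ACTB, LAIR1 and RPS6, the last at a mean of 14.35. Most of these encode ribosomal proteins or actins. LAIR1, named for a leukocyte inhibitory receptor, stood among them at a mean of 14.36 through 1 probe, while its other probe was not detected on any control array and averaged 4.59, so the bright probe and the other disagree about this gene. All 15 genes taken as common to every cell, TBP among them, were detected on all 6 arrays.

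Proximal tubule identity was partial. Across the 5 tubule lists, detection on all 6 arrays covered 9 of 13 genes of apical endocytosis (69.2%), 9 of 24 brush border genes (37.5%), 15 of 34 solute transport genes (44.1%), 10 of 24 organic ion transport genes with a probe (41.7%) and 11 of 29 kidney transcription factors (37.9%), beside 54.6% of all genes. Some genes of the basolateral side were detected, while others, such as the carriers SLC22A6, SLC22A8 and SLC7A8, were not. FXYD2, which encodes the regulatory gamma chain of Na,K-ATPase, had signals of 12.22, 12.41 and 12.21 at 48 h and 12.52, 12.35 and 12.47 at 18 h, at the 96.5th percentile of detected genes. ATP1B1, the pump's beta subunit, had 11.995, 11.92 and 12.11 at 48 h and 11.69, 11.73 and 11.84 at 18 h. Both pump genes were bright on every array. SLC4A4, the basolateral sodium bicarbonate cotransporter, had 9.43, 9.39 and 9.54 at 48 h and 8.84, 9.05 and 9.24 at 18 h. Every 48 h value lay above every 18 h value, as for 12.7% of all genes tested, and SLC4A4 was not called in the time comparison below. CA2, the cytosolic carbonic anhydrase that feeds bicarbonate transport, averaged 10.17 ± 0.16 (SD, n = 6).

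On the apical side, the 2 endocytic receptors and many brush border proteins were not detected. LRP2 (megalin) had background signals of 4.38, 4.39 and 4.35 at 48 h and 4.43, 4.53 and 4.47 at 18 h. CUBN (cubilin), its partner AMN and the endosomal chloride transporter CLCN5 were likewise not detected on any of the 6 arrays. The endocytic adaptor DAB2 was detected at 10.32, 10.25 and 10.27 at 48 h and 10.01, 10.03 and 10.14 at 18 h, and the folate receptor FOLR1 averaged 9.44, so parts of the uptake apparatus were measured without its receptors. Among brush border genes, GPX3 (the secreted glutathione peroxidase that the proximal tubule supplies to plasma, mean 11.32), PDZK1 and PDZK1IP1 (10.25 and 10.28), EZR, NHERF1, GGT1, ENPEP, DPP4 and CLTRN were detected on all arrays. ANPEP, ACE, ALPL, MEP1A, VIL1, CDHR2, CDHR5, USH1C, CA4, TREH and the water channel AQP1 were detected on none, and MME, MEP1B and PROM1 on some.

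The sodium-coupled carriers of the SLC5A glucose and SLC34A phosphate types listed next were not detected. SLC5A1, SLC5A2, SLC5A10 and SLC5A12, the phosphate carriers SLC34A1, SLC34A2 and SLC34A3, the neutral amino acid carriers SLC6A19 and SLC6A18, the sodium-proton exchanger SLC9A3, and SLC7A8, SLC15A1, SLC15A2, SLC13A1, SLC13A2 and SLC26A1 were at background on all 6 arrays. SLC5A2, the target of the gliflozin drugs, had 5.15, 4.89 and 4.95 at 48 h and 5.03, 5.16 and 5.01 at 18 h. Detected members included carriers with wider tissue distribution, such as the sodium-coupled phosphate carriers SLC20A1 (10.60) and SLC20A2 (7.88, also known from the brush border), and SLC3A2, together with low signals of the tubular carriers SLC2A2 (6.92), SLC5A8 (6.72), SLC1A1 (5.85) and SLC3A1 (5.81). SLC7A9, SLC13A3 and SLC23A1 were detected on some arrays.

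**Figure D1:**
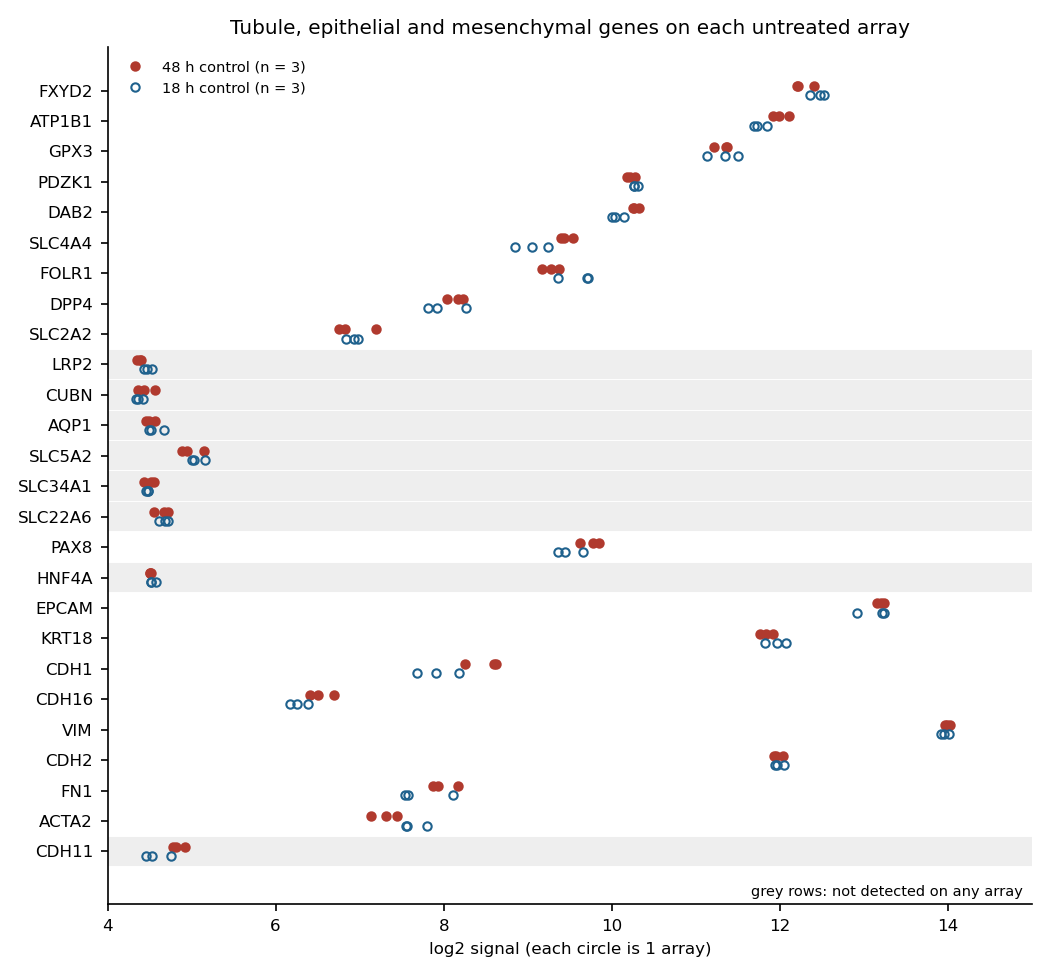
Log2 signal (x axis) of 26 tubule, epithelial and mesenchymal genes (rows) on each untreated array, with filled red circles for the 3 arrays at 48 h and open blue circles for the 3 at 18 h. Rows shaded grey (LRP2, CUBN, AQP1, SLC5A2, SLC34A1, SLC22A6, HNF4A and CDH11) were not detected on any array and lie below 5.2, while FXYD2, EPCAM and VIM lie above 12.

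Among carriers of drugs and organic ions, members of both the efflux and the uptake groups were detected and not detected. The efflux pumps ABCB1 (P-glycoprotein), ABCC3 and ABCC4 averaged 10.34, 10.08 and 9.36, and the uptake carrier SLCO4C1 averaged 8.81. The organic anion carriers SLC22A6 and SLC22A8, the cation carrier SLC22A2, the urate carrier SLC22A12, and SLC22A7, SLC22A11, SLCO2B1, SLC17A1, ABCC2 and ABCG2 were not detected on any array. SLC22A3, SLC2A9 and ABCC6 were detected on some, and SLC47A1 and SLC47A2 have no probe under those names. Of the transcription factors, PAX8, which specifies the renal lineage, had 9.78, 9.62 and 9.85 at 48 h and 9.45, 9.36 and 9.66 at 18 h. LHX1, which acts in early nephron formation, averaged 8.30. HNF4A, which drives much of the mature proximal tubule programme, was not detected by any of its probes, with signals between 4.50 and 4.57. The nephron progenitor genes SIX2, WT1, EYA1, SALL1 and OSR1 were also at background, as were PAX2 and SOX9.

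Markers of the other nephron segments were largely not detected. UMOD and SLC12A1 of the thick ascending limb, SLC12A3, CALB1 and PVALB of the distal convoluted tubule, AQP2, AVPR2, SCNN1B, SCNN1G and FOXI1 of the collecting duct, and NPHS1 of the podocyte were at background on all 6 arrays. Members detected on all 6 were TCF21 (7.76) and PODXL (6.20) for the podocyte list of 9, CLDN14 (8.53) and CLDN16 (7.46) for the loop list of 9, WNK1 (6.66) for the distal list of 10, and SCNN1A (7.91) and ATP6V1B1 (5.84) for the collecting duct list of 16. Of 10 endothelial markers none was detected on all 6 arrays and PECAM1 was detected on 1. Of 12 leukocyte markers, CD68, a lysosomal protein found in many cultured lines, was detected at 10.27, and PTPRC, CD14 and CD3E were not. ALB, HBA1 and HBB were not detected, and SERPINA1 averaged 9.96.

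**Figure D2:**
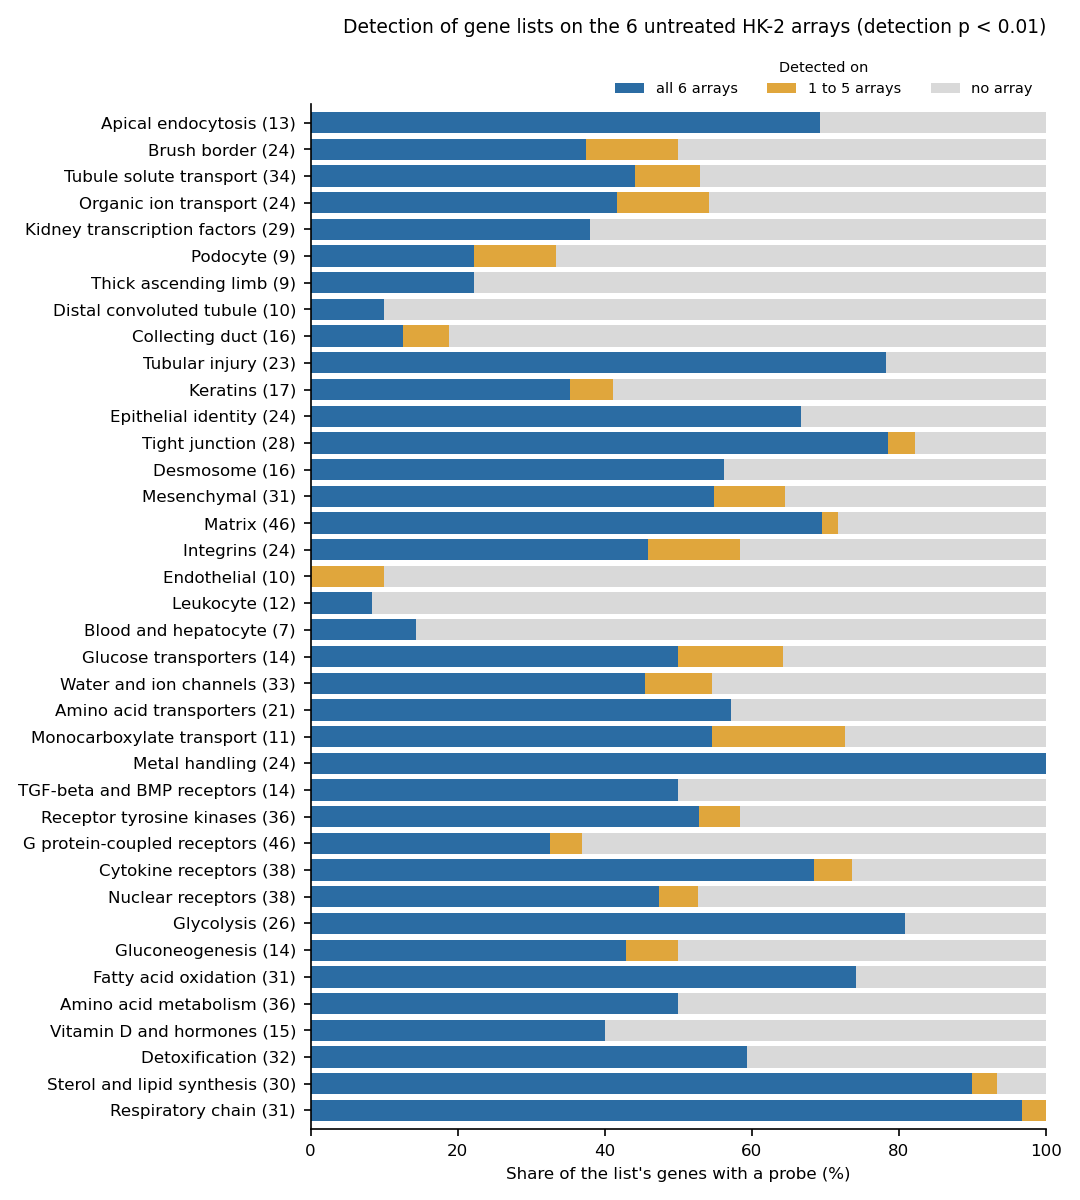
Share of each gene list (rows, number of genes with a probe in brackets) detected on all 6 untreated arrays (blue), on 1 to 5 (orange) and on none (grey), at a detection p under 0.01. Metal handling (24 of 24), the respiratory chain (30 of 31) and sterol and lipid synthesis (27 of 30) were nearly complete, while endothelial markers (0 of 10) and distal convoluted tubule markers (1 of 10) were nearly absent.

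Many genes known from injured or cultured tubule were bright. Of 23 injury genes, 18 were detected on all 6 arrays (78.3%), with a median at the 96.6th percentile of detected genes. The list holds genes not particular to injury, such as B2M, which was also among the 15 genes taken as common to every cell. Those 15 had a median at the 98.4th percentile. HAVCR1, LCN2 and VCAM1 lay at the 82.0th, 63.5th and 40.6th percentiles. SPP1 (osteopontin) had 14.16, 14.29 and 14.18 at 48 h and 14.14, 14.37 and 14.09 at 18 h. HAVCR1 had 10.13, 10.19 and 10.34 at 48 h and 10.23, 10.13 and 10.26 at 18 h. Both lay in the upper part of the detected range with overlapping groups. CD24, a surface protein of tubule progenitor-like cells, averaged 13.75, LCN2 (lipocalin 2) 9.02 and VCAM1 7.82. CLU, SOX9, KRT20, TFF3 and FABP1 were not detected.

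The cells carried epithelial and mesenchymal genes together. EPCAM, the epithelial adhesion molecule, had 13.21, 13.16 and 13.24 at 48 h and 12.92, 13.24 and 13.22 at 18 h, the intermediate filament gene VIM had 14.02, 13.99 and 13.97 at 48 h and 13.91, 14.01 and 13.95 at 18 h, and both were on every array among the brightest 3% of detected genes. CDH2 (N-cadherin), the main cadherin of human proximal tubule, averaged 11.98 ± 0.05 (SD, n = 6), and CDH6, a kidney cadherin, averaged 11.63. CDH1 (E-cadherin) was lower in the detected range, at 8.63, 8.26 and 8.60 at 48 h and 7.69, 7.91 and 8.18 at 18 h, and CDH16 (kidney-specific cadherin) averaged 6.40. Of 24 epithelial identity genes 16 were detected on all arrays, MAL, SPINT2, ELF3, CRB3 and MUC1 among them. ESRP1, ESRP2, GRHL1, GRHL2, OVOL1, ST14 and RAB25, several of which regulate epithelial splicing and transcription, were not detected.

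The keratins of simple epithelium KRT19, KRT18, KRT8 and KRT7 averaged 12.24, 11.89, 9.73 and 7.27. KRT10, known best from stratified epidermis, averaged 10.22, KRT23 was low at 5.79, and the hair keratin KRT34 was detected on 1 array. KRT5, KRT14, KRT6A, KRT1, KRT4, KRT13, KRT15, KRT16, KRT17 and KRT20 were not detected. Tight junction genes were detected for 22 of 28. CLDN1 averaged 13.61, and CLDN2, the cation-conducting claudin of the proximal tubule, averaged 10.67 ± 0.17 (SD, n = 6). OCLN (occludin) was not detected by any of its 4 probes, nor were CLDN10, CLDN7, CLDN8 and CLDN6. Desmosome genes were detected for 9 of 16, with JUP (plakoglobin) at a mean of 10.73. The others detected were DSG2, DSC2, DSP, PKP2, PKP4, PERP, EVPL (6.79) and DSG4 (6.04). DSG1, DSG3, DSC1, DSC3, PKP1, PKP3 and PPL were not detected.

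Of 31 mesenchymal genes 17 were detected on all 6 arrays, close to the 54.6% of all genes. TPM1 (13.09), CNN3 (12.74), TAGLN (10.83), MYL9 (10.17), the matrix proteoglycan LUM (10.85) and the repressor SNAI2 (9.38) were among them, and ACTA2, the smooth muscle actin of myofibroblasts, averaged 7.47. SNAI1, TWIST2, PRRX1, FOXC2, CDH11, THY1, POSTN, PDGFRB, DES, TPM2 and MYH11 were not detected. Matrix genes were detected for 32 of 46. The basement membrane genes COL4A1 (12.77), LAMA5 (12.19), LAMC1 (11.74) and LAMB1 (10.73) and the short-chain collagen COL8A1 (13.15) were bright. The fibrillar collagen COL1A1 averaged 7.01, and COL1A2, COL3A1 and COL5A2 were not detected. Integrins ITGB1 (13.27), ITGAV (11.64), ITGB5 (11.47) and ITGA3 (11.36), which bind laminin and vitronectin, led 11 of 24 subunits detected. ITGB2, known best from leukocytes, averaged 9.18. Of its usual partners, ITGAL and ITGAM were not detected, and ITGAX was detected on 4 of the 6 arrays.

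Detected glucose carriers were led by the facilitative carriers SLC2A1 (10.22) and SLC2A3 (10.10), and SLC2A6, SLC2A8, SLC2A10, SLC2A2 and SLC2A11 were also detected, whereas the insulin-responsive SLC2A4 and the fructose carrier SLC2A5 were not. Water channels were at background but for AQP11 (7.42) on all arrays and AQP4 and AQP6 on some. The potassium channel KCNJ16, which sits in the basolateral membrane of the tubule, averaged 10.15, and the chloride channel protein CLIC1 12.56. Amino acid carriers were detected for 12 of 21, led by SLC38A1 (11.23) and SLC38A2 (11.08), and without SLC7A11. Lactate and pyruvate transport showed BSG, MPC2, SLC16A3 and MPC1, with SLC16A1 not detected. All 24 metal-handling genes were detected on all 6 arrays. They included the metallothioneins MT2A (12.95), MT1A (12.89), MT1F (12.78) and MT1E (12.24), whose near-identical sequences can share probes, and ferritin light chain FTL (14.55).

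Receptors for the study's agents were measured in part. TGFBR2, the ligand-binding receptor for TGF-beta, had 10.68, 10.39 and 10.48 at 48 h and 10.34, 10.22 and 10.37 at 18 h. TGFBR1, its signalling partner, was not detected by its 1 probe, which had signals of 4.70, 4.57 and 4.55 at 48 h and 4.62, 4.90 and 4.69 at 18 h. The same probe was not detected on any TGF-beta1 array either. Of 14 receptors of the family 7 were detected, with ACVR1 (10.56), BMPR2 (9.62), ACVR1B, BMPR1A, ACVR2A and TGFBR3. GPR146, a proposed receptor for C-peptide, had background signals of 4.86, 4.77 and 4.63 at 48 h and 4.78, 4.71 and 4.64 at 18 h. INSR, the insulin receptor, was not detected by its 1 probe.

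Receptor tyrosine kinases were detected for 19 of 36, among them AXL (11.93), IGF2R (grouped with them as a growth factor receptor, 11.47), RYK (11.01), FGFR3 (10.43), ERBB2 (9.91), MET (8.89) and EGFR (8.79). KIT, KDR, FLT1, CSF1R, RET and ERBB4 were not. Among 46 G protein-coupled receptors with a probe, 15 (32.6%) were detected on all 6 arrays, against 54.6% of all genes. F2R, the thrombin receptor PAR-1, was the brightest among the listed receptors, at 14.07, 14.06 and 14.02 at 48 h and 14.05, 13.91 and 14.12 at 18 h. F2RL1 (10.83) and ADORA1 (9.43) were also detected, and PTH1R, which mediates parathyroid hormone action on tubular phosphate transport, was near the lower end at 5.83. AGTR1, CASR, AVPR2, AVPR1A, DRD1, GLP1R, EDNRA and 22 others were not detected. Of 38 cytokine and pattern recognition receptors 26 were detected, including LTBR, TNFRSF1A, IFNGR1 and TLR3, and not TLR2, TLR4, IL1R1 or TNFRSF1B. Of 38 nuclear receptors 18 were detected, with NR2F2, NR2F6 and RXRA near 10, PPARG at 8.49, the mineralocorticoid receptor NR3C2 at 8.35 and PPARA at 5.99. The vitamin D receptor VDR was not detected by either of its probes.

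Genes of glycolysis and respiration were detected more completely than those of gluconeogenesis (6 of 14). Glycolytic genes were detected for 21 of 26, with GAPDH, ENO1, LDHB, TPI1 and LDHA above 12.5, HK1 (11.11) and HK2 (6.38), and HK3 and PKLR not detected. The committed gluconeogenic genes G6PC1, PCK1, FBP1 and FBP2 were at background on every array, with PCK1 between 4.40 and 4.46, while the mitochondrial PCK2 averaged 8.71. Respiratory chain and citrate cycle genes were detected for 30 of 31, with a median at the 90.2th percentile. Fatty acid oxidation genes were detected for 23 of 31, with HADH (11.14), ACADM (10.73) and PPARGC1A (7.48), and without the fatty acid carriers CD36, FABP1 and FABP3. CPT1A, the entry step of the pathway, was not detected by its probes.

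Cholesterol and fatty acid synthesis was almost fully represented, 27 of 30 genes, led by SCD at 13.62, 13.85 and 13.63 at 48 h and 13.44, 13.44 and 13.72 at 18 h. Tubular amino acid metabolism was detected for 18 of 36 genes. GLUD1 (10.63), OAT, ASS1 and GATM, the first enzyme of creatine synthesis, were present, and MIOX, BBOX1, AGXT2, DDC, DAO and BHMT were not. KL (klotho) averaged 9.39, the vitamin D catabolic enzyme CYP24A1 6.60, and CYP27B1, which activates vitamin D in the proximal tubule, was not detected. UGT2B7, a major glucuronidating enzyme of kidney with close paralogues, averaged 11.10 ± 0.11 (SD, n = 6), beside GSTP1 (13.30), PRDX1 and AKR1B1. CYP3A5, CYP4A11, UGT1A9, GSTA1, GSTA2 and FMO1 were not detected.

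Proliferation, inflammatory and stress genes were examined last. Of 31 cell cycle genes with a probe 29 were detected on all 6 arrays, with MCM3 (12.47), PCNA (12.28) and TOP2A (11.26) bright and MKI67 low (5.95). CDKN2A, which accumulates when RB is inactivated, averaged 9.49. CXCL8 (interleukin 8) had 13.96, 14.01 and 13.83 at 48 h and 13.80, 13.89 and 13.90 at 18 h, while IL1B, TNF and ICAM1 were not detected. Of 28 interferon-stimulated genes 20 were detected. All 17 heat shock genes were detected. Among secreted proteases MMP7 (12.25) and PLAU (12.32) were bright, and MMP1, MMP2, MMP3, MMP10 and MMP13 were at background. TGFB2 averaged 9.64, while the 1 probe for TGFB1 was not detected.

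Genes not detected in the untreated cells could be detected by the same probes in treated ones. Of the 6959 undetected genes, 75 were detected on all 3 arrays of TGF-beta1 for 48 h, 7 on all 3 of C-peptide for 48 h and 0 on all 3 of C-peptide for 18 h. Among the 75 were AMTN, with a mean signal of 9.95 with TGF-beta1 and 4.56 in the 6 controls. The collagenase MMP1 had 8.66 with TGF-beta1 and 4.97 in controls, and SOX9 had 8.36 and 5.06. COL6A3, PDGFRB and SMURF2 were in the same group. These are detection counts with no test.

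The 48 h and 18 h controls were next compared gene by gene, in a limma model fitted to all 18 arrays with 12468 genes and Benjamini-Hochberg adjustment. Of these genes, 204 were not detected by the tested probe on any control array. They passed the filter through treated flasks, so their control values lie at background and still count among the genes tested below. A single gene, RABL2A, which encodes a Rab-like GTPase, passed an adjusted p of 0.05, that is 0.00802% of the genes tested. RABL2A had signals of 7.31, 7.18 and 7.09 at 48 h, against 7.99, 7.84 and 7.86 at 18 h. Its values at 48 h all lay below those at 18 h, with a log2 difference of -0.705 (SE 0.107, limma adjusted p = 0.0228). RABL2B, a near-identical copy on another chromosome, had 7.98, 8.20 and 8.04 at 48 h, against 8.34, 8.23 and 8.09 at 18 h (log2 difference -0.147, limma adjusted p = 0.386), and probes for the pair can share transcripts. The call was lost without any 1 of the 5 control arrays other than replicate 3 at 18 h, where the adjusted p ranged from 0.0501 to 0.33, and with the mean of RABL2A's probes the difference was -0.433 (adjusted p = 0.0609). In C-peptide flasks the 48 h minus 18 h difference of RABL2A was 0.309.

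No member of the gene lists was called among the 819 tested (limma), beside 94 higher and 73 lower at 48 h at an unadjusted p under 0.05. Over all genes that unadjusted count was 2740, or 22% (11.6% higher and 10.4% lower). The 3 values of a gene at 48 h did not overlap the 3 at 18 h for 3211 genes, 25.8% of those tested, 12.7% higher and 13% lower at 48 h. For list members the corresponding counts were 105 higher and 113 lower, near these shares. They include genes at background on every control array, such as PDGFRB and SOX9. The largest difference was 0.955 on the log2 scale (SE 0.167, limma adjusted p = 0.0517), for KIRREL1, a slit diaphragm protein gene, with 8.88, 8.61 and 8.80 at 48 h, against 7.66, 7.63 and 8.13 at 18 h.

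The position of replicate 3 of the 18 h controls was measured over all tested genes. The median absolute difference in log2 signal between this array and the 48 h arrays was 0.112, 0.102 and 0.131, close to the 0.102 to 0.122 among the 48 h arrays themselves. It differed from the other two 18 h arrays by 0.173 and 0.159, whereas those 2 differed from each other by 0.121 and from the 48 h arrays by 0.165 to 0.231. The median SD between flasks was 0.095 at 48 h and 0.129 at 18 h.

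**Figure D3:**
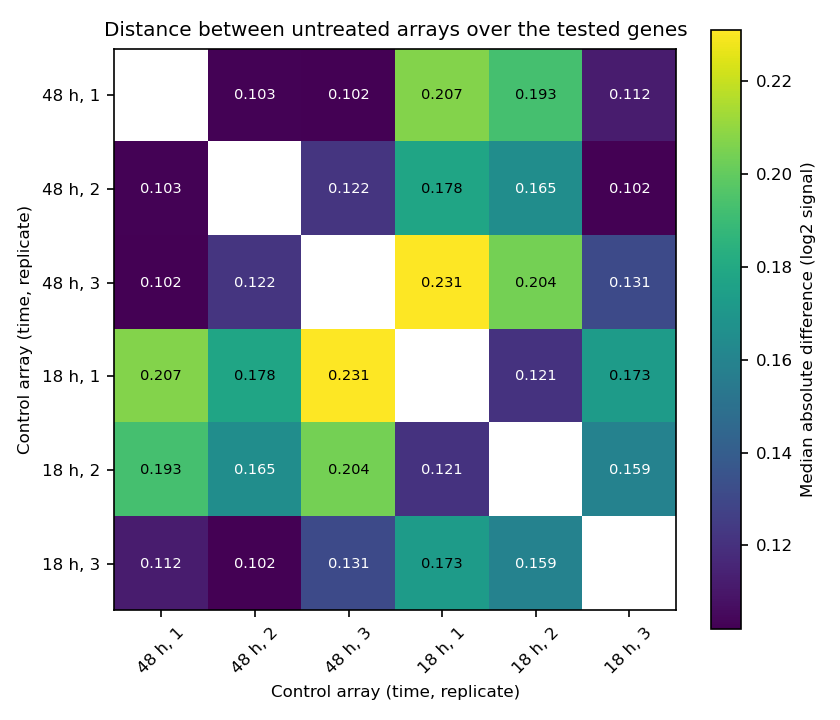
Median absolute difference in log2 signal over the tested genes between each pair of untreated arrays (rows and columns: time and replicate). Replicate 3 at 18 h lies 0.102 to 0.131 from the 48 h arrays and 0.159 to 0.173 from the other 18 h arrays.

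Without that array 1568 genes were called, 12.6% of those tested, 908 higher (7.28%) and 660 lower (5.29%) at 48 h. Without any other single control array the limma count was 0, with 1394 to 2701 genes at an unadjusted p under 0.05. The count of control genes also moved with other settings that kept all 6 control arrays: it was 786 when replicate 3 of C-peptide at 18 h was left out of the shared fit, and 136 when the control arrays were fitted alone. The values below are given with and without replicate 3 of the 18 h controls. This array was singled out because it resembled the 48 h arrays, so leaving it out tends to widen the difference between the groups. Calls and adjusted p-values without the array therefore describe these values and are no independent test of a time difference. Of the 819 list members tested, 67 were called higher and 31 lower without that array, 98 in all.

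Matrix and adhesion genes held many of these. All 35 matrix genes tested had a median difference of 0.17, beside 0.00 over all genes, and without replicate 3 at 18 h 11 were called higher and 0 lower at 48 h, in a setting that called 7.28% of all genes higher. Among the 35, COL5A2 and COL6A3 were not detected on any control array. THBS1 (thrombospondin 1) had 11.17, 11.12 and 11.43 at 48 h, against 10.64, 10.65 and 11.09 at 18 h. COL4A2, a basement membrane collagen chain, had 10.21, 10.12 and 10.44 at 48 h, against 9.63, 9.69 and 10.05 at 18 h. In both genes replicate 3 at 18 h lay nearest to the 48 h values. With all arrays the log2 difference was 0.447 for THBS1 (limma adjusted p = 0.0795) and 0.465 for COL4A2 (0.0774), and without the array 0.60 (0.00736) and 0.59 (0.0103). The laminin chain LAMA5 had 12.48, 12.27 and 12.47 at 48 h, against 11.75, 11.63 and 12.51 at 18 h, so that its value on replicate 3 at 18 h exceeded all of the 48 h values. LAMB1, LAMC1, LAMA1, LAMB2, AGRN, COL7A1, COL4A5 and FBLN1 completed the 11.

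Of 14 integrin subunits tested 5 were called higher at 48 h without that array, beside 7.28% of all genes: ITGAX, ITGAV, ITGB4, ITGA3 and ITGB1. ITGAV, the vitronectin receptor chain, had 11.80, 11.87 and 11.97 at 48 h, against 11.13, 11.31 and 11.77 at 18 h (log2 difference 0.477, limma adjusted p = 0.105 with all arrays, 0.0132 without the array). Of 22 mesenchymal genes tested, ACTA2 and TWIST1 were called lower without it and 0 higher, beside 5.29% and 7.28% of all genes. Among the 22, SNAI1 and PDGFRB were not detected on any control array. ACTA2 had 7.45, 7.31 and 7.13 at 48 h, against 7.80, 7.56 and 7.55 at 18 h, a log2 difference of -0.340 (limma adjusted p = 0.0984 with all arrays, 0.0439 without).

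Junction genes of the epithelium included JUP, with 11.01, 10.81 and 11.27 at 48 h, against 10.41, 10.19 and 10.71 at 18 h (log2 difference 0.594, limma adjusted p = 0.0623 with all arrays, 0.00651 without). CDH1 had a log2 difference of 0.572 (limma adjusted p = 0.0953 with all arrays, 0.0279 without). CTNNA1, the catenin that links cadherins to actin, had 11.30, 11.40 and 11.39 at 48 h, against 11.08, 11.12 and 11.18 at 18 h (0.236, adjusted p = 0.101 with all arrays, 0.0465 without). Of the 54 epithelial genes tested 5 were called higher and 1 lower without the array, near the 7.28% and 5.29% of all genes, and JUP, CDH1 and CTNNA1 each had 48 h values above all of their 18 h values.

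Of 64 tubule genes tested, 9 were called higher and 1 lower without the array, beside 7.28% and 5.29% of all genes. Of the 9, 5 were in the transporter lists: ABCB1, ABCC3, SLCO4C1, ATP1B1 and SLC20A1. ABCB1 had 10.60, 10.40 and 10.84 at 48 h, against 9.97, 9.90 and 10.35 at 18 h (log2 difference 0.540, limma adjusted p = 0.0652 with all arrays, 0.00687 without). ATP1B1, whose per-array values are given above, differed by 0.255 (adjusted p = 0.112 with all arrays, 0.0424 without), SLC20A1 by 0.251 (0.0967 and 0.0152) and SLCO4C1 by 0.311 (0.0847 and 0.0248). Sizes were thus small against the 1.0 of a doubling.

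In signalling and metabolism, BMPR2 (log2 difference 0.598) and AXL (0.315) among receptors, and SREBF1 (0.546) and ACACA (0.310), which direct fatty acid synthesis, were called higher without the array and not with it. SREBF1 had 9.27, 9.18 and 9.22 at 48 h, against 8.61, 8.37 and 9.06 at 18 h. The replication genes MCM2 (0.521) and MCM3 (0.277) and the hypoxia-inducible factor EPAS1 (0.358) behaved likewise. Without the array, 11 of 95 receptor genes tested were called higher and 4 lower, and 7 and 10 of 153 metabolic genes. In the lists of cellular processes, 15 of 290 were called higher and 11 lower, with 3 and 2 of 30 for the cell cycle. Over all genes the shares were 7.28% higher and 5.29% lower, so the genes named here are single examples from lists called in both directions. Among genes lower at 48 h, 5 of 31 respiratory genes were called without the array, beside 5.29% of all genes, with SDHC at -0.361 and PDHA1 at -0.360 on all arrays. The ER stress genes MANF (-0.353) and DDIT3 (-0.285), the immediate early gene IER2 (-0.612), the inhibitor of differentiation ID3 (-0.400), the interferon-stimulated ISG15 (-0.518), the urokinase receptor PLAUR (-0.348) and GSTP1 (-0.268) were also called lower without it. CDKN2A had 9.21, 9.31 and 9.11 at 48 h, against 10.21, 9.72 and 9.36 at 18 h (log2 difference -0.550, limma adjusted p = 0.0925 with all arrays, 0.0114 without).

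**Figure D4:**
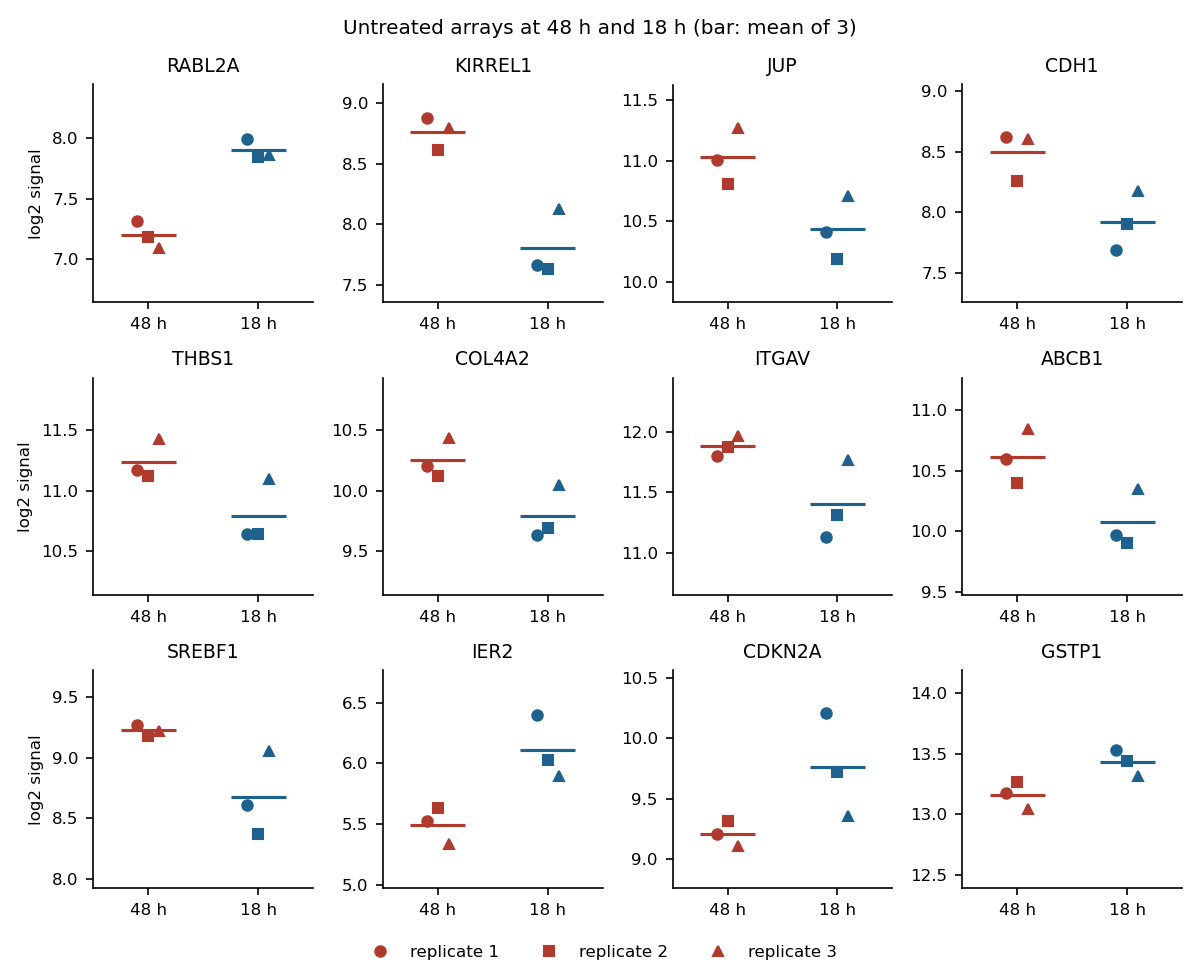
Log2 signal (y axis, equal span in every panel) of 12 genes on the untreated arrays at 48 h (left, red) and 18 h (right, blue). Symbols mark replicates 1 to 3 and bars the mean of 3. In every panel except that of RABL2A, replicate 3 at 18 h is the 18 h value nearest to the 48 h mean, and only RABL2A passed the adjusted p with all arrays.

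A second comparison of the times came from C-peptide flasks, 3 at 48 h against 3 at 18 h that share no array with the controls. Here too the 48 h and 18 h arrays lie in separate blocks of the array order. It called 427 genes, 3.42% of those tested, 253 higher (2.03%) and 174 lower (1.4%) at 48 h. The C-peptide count also leaned on single arrays, with 9 to 723 calls when each of its 6 arrays was left out, so neither time comparison was stable. The sign of the time difference was the same in control and C-peptide flasks for 40.7% of all genes, and the difference itself differed between them for 1112 genes (8.92%) at an adjusted p of 0.05. The matrix list had a median of -0.12 in C-peptide flasks against 0.17 in controls, and the integrin list -0.16 against 0.21. THBS1 had a time difference of -0.293 in C-peptide flasks against 0.447 in controls, and ITGAV -0.456 against 0.477. LAMB1 had 0.447 in C-peptide flasks (limma adjusted p = 0.0402) and 0.399 in controls.

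Deviations between control arrays moved with gene size. Genes were ordered by the length they span on the genome in the RefSeq table and split into 10 equal groups. The median deviation from a gene's mean over the 6 arrays, in the group of longest genes minus that in the group of shortest, was 0.122, 0.073 and 0.143 on the 48 h arrays, against -0.217, -0.169 and 0.044 on the 18 h arrays. Replicate 3 at 18 h again had the sign of the 48 h arrays. In the matching measure over all 18 arrays C-peptide arrays at 48 h had -0.083, -0.047 and 0.055, against 0.106, 0.169 and 0.093 at 18 h, the opposite order from the controls. The genes named above include long ones, such as those for laminins and integrins, and the part of gene span in their differences was not tested.

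**Figure D5:**
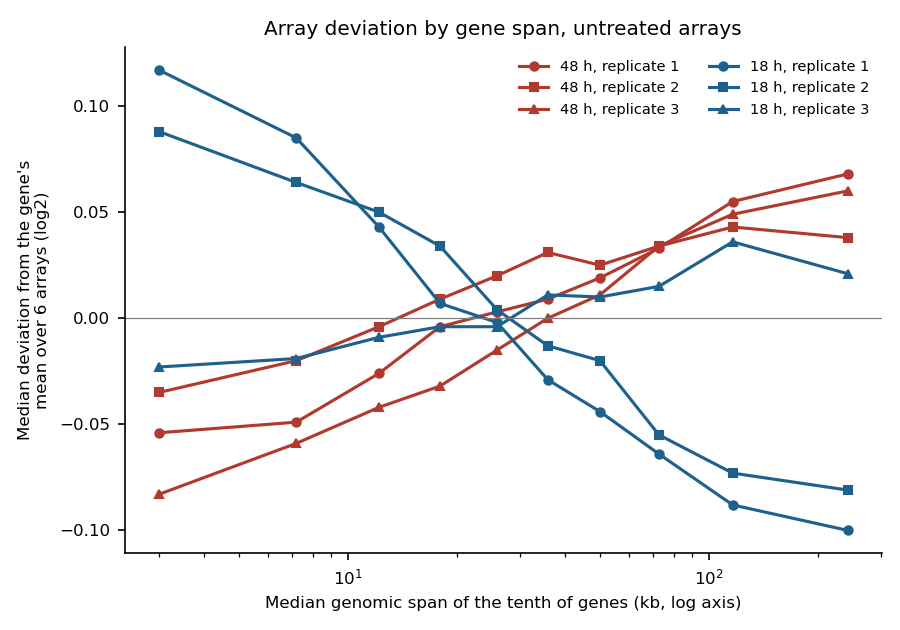
Median deviation of genes from their own mean over the 6 untreated arrays (y axis, log2) in 10 groups of genes ordered by genomic span (x axis, median span in kb, log scale), 1 line per array, 48 h in red and 18 h in blue. The 18 h arrays 1 and 2 fall with span from 0.117 and 0.088 to -0.100 and -0.081, while the 48 h arrays and 18 h array 3 run the other way.

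Between flasks, the detected genes with the largest SD over the 6 arrays were KIRREL1 (0.558), SEMA5A (0.543), DHRS3 (0.507), IGFBP5 (0.501), CSNK1G2 (0.499), WNT7B (0.496), MAN2A1 (0.485), KAT6A (0.484), PEDS1-UBE2V1 (0.475) and NUMA1 (0.475). They followed different splits. DHRS3, a retinal reductase, had 7.18, 5.93 and 7.27 at 48 h, against 6.35, 6.72 and 6.57 at 18 h. In IGFBP5 and WNT7B too, replicate 2 had the lowest of the 48 h values, though in WNT7B it (7.96) was above replicate 1 at 18 h (7.91). KAT6A, a histone acetyltransferase, had 9.42, 9.18 and 9.41 at 48 h, against 8.30, 8.45 and 9.09 at 18 h, with replicate 3 at 18 h near the 48 h arrays. At the edge of detection, 21 genes were detected on all 3 arrays at 48 h and on none at 18 h, and 1 gene, the succinate receptor SUCNR1, the reverse. SUCNR1 had 5.20, 5.46 and 4.98 at 48 h, against 5.94, 5.75 and 5.56 at 18 h (limma adjusted p = 0.146).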

How the data were processed

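RNA of 18 HK-2 flasks was measured on Illumina bead arrays, and the 6 control arrays are described here. Per the file headers, the deposited unnormalized table holds mean bead intensity from GenomeStudio 1.1.1 without normalization, the deposited bead counts behind each value, and detection as a fraction, 1 minus the detection p. The authors also deposited intensities after their own normalization, used here as an alternative only; BeadStudio appears beside GenomeStudio in the submitters' processing notes. Starting from the unnormalized intensities, the neqc function (R 4.3.3, limma 3.58.1) was applied (background from the detection p, offset 16, quantile normalization, log2). A gene counted as detected on an array when any probe had a detection p under 0.01. For the time comparison, probes detected on 3 or more of 18 arrays were kept, the brightest probe stood for its gene, and 6 group means were fitted with lmFit and eBayes with an intensity trend (12 residual degrees of freedom, two-sided tests, Benjamini-Hochberg adjustment over 12468 genes). Symbols were updated through a RefSeq gene table: of 48803 probes 22068 carried a current symbol, 5138 an older one and 21597 kept the file's name. For the order by gene span, genes without a span in that table were left out.

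The labels do not say whether replicate numbers pair the flasks, and the main fit used no pairing. Values of some list members and bright genes are not reported here. The members and the 52 gene lists (1216 genes, 1206 with a probe) were chosen with earlier results of these data known. Named genes were all list members in the detection account, the 25 brightest and the 10 most variable genes, every called gene, and uncalled list members since no list had a called one (the rule's largest called differences came to RABL2A). Of the latter, those shown were picked after their values were seen. Alternatives were single arrays left out, other normalizations, filters, probe rules, array weights, the replicate number as a block and other detection thresholds.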

Additional observations from a re-analysis of the deposited data

Results flagged for a closer look

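The 48 h minus 18 h difference differed between control and C-peptide flasks for 1112 genes by the interaction term of the limma model at an adjusted p under 0.05. Among the genes named above, the control difference minus the C-peptide difference, in log2 units, was 1.041 for KAT6A, 0.935 for ABCB1, 0.933 for ITGAV, 0.854 for SREBF1, 0.739 for THBS1, 0.571 for ACACA, 0.53 for ATP1B1, 0.524 for LAMC1, 0.438 for MCM3 and 0.401 for SLC20A1. It was -1.014 for RABL2A, -0.852 for IER2, -0.77 for CDKN2A, -0.735 for ID3, -0.619 for SDHC, -0.559 for PLAUR and -0.497 for PDHA1. A term of this kind compares flasks that also differ in C-peptide and in array order.

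Signal outside the untreated flasks drew attention to 75 genes that were below detection on all 6 control arrays and detected on all 3 TGF-beta1 arrays, as counted above without a test.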

How the results depend on the processing

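The number of genes detected on all 6 control arrays, 9397, stayed within 1.5 times under every threshold tried, from 7218 (every probe of a gene) to 10752 (detection p under 0.05), and was 9398 to 9512 with 1 array left out. Counts of detected members moved by over 1.5 times in 12 lists when every probe had to be detected, in 8 at a detection p under 0.001 and in 3 at one under 0.05. Signal percentiles in the authors' normalized table moved by less than the SD between arrays for the 23 genes compared.

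The count called for 48 h against 18 h was 1, and moved to 0 to 1568 with 1 control array left out (only replicate 3 at 18 h gave more than 0) and 1 to 786 with 1 C-peptide array left out (786 without replicate 3 at 18 h). It was 86 with the replicate block and all groups, 136 for the control arrays alone (87 higher), 1075 for these with the replicate block (641 higher), 149 with median scaling over tested probes (67 higher), 14 in the authors' table (5 higher), 0 with no filter on dim probes (4434 at an unadjusted p under 0.05), 5 with the mean of probes, 2 without the intensity trend and 2917 with array weights (1568 higher). Median scaling over all probes gave 7245 (7240 higher) and shifted the median gene by 0.361. The C-peptide count of 427 became 218 with median scaling, 1355 with array weights and 9 to 723 with 1 of its arrays left out. The causes were not tested. Same-numbered flasks' deviations correlated at -0.048, 0.052 and 0.201, and not every flask correlated best with its own number. So few correlations cannot decide whether the numbers pair the flasks. Over the time differences of the genes with per-array values, 130 results passed the threshold under an alternative that the main setting did not, 7 lost it (all RABL2A) and none of those counted reversed. For median scaling over all probes, these counts used values taken relative to the median gene. Without that step median scaling did not call RABL2A either, and reversals of sign under it were not counted. An array set as a block was not run, since all 18 h arrays lie in 1 set and time cannot be told apart from it. Arrays of 3 per group and signals near background, under about 5.5, set the limits of detection.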
